A study of Mus musculus with 26 samples.

Results

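The same cytosines were read in mouse embryonic stem cells (mESC) on DNA bound by CTCF and on accessible DNA. CTCF M-ChIP recovers chromatin with a CTCF antibody from Millipore, tags it with a Tn5 transposase loaded with methylated adaptors and converts it with bisulfite. M-ATAC applies the same transposase to nuclei, so that its reads come from open chromatin whether or not CTCF is bound. Both assays therefore give binding or accessibility together with the methylation of each cytosine. The reads of CTCF M-ChIP are called CTCF-bound here, and the part of background DNA among them was not tested. A cytosine entered the set when it had at least 5 reads in the merged table of each assay, and each one was counted once. The set held 10066 cytosines, which were 29.6% of the 33959 cytosines with at least 5 reads in the CTCF M-ChIP table and 0.974% of the 1033385 in the M-ATAC table. They lay in 4155 matches to the CTCF motif MA0139.1 and in 3713 CTCF M-ChIP peaks, because the CTCF M-ChIP table lists only cytosines inside 19-base motif matches.

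Both assays used untreated KH2 mESC grown on irradiated feeder cells with LIF and serum, with the feeders reduced by pre-plating. M-ATAC had 4 samples and CTCF M-ChIP had 2 samples, with 1 peak list each. Methylation was read here from tables in which the authors had merged replicates, and which of the M-ATAC samples were merged is not given in the sources used here. Methylation values therefore have no replicate SD, and each interval or test below compares the reads of 2 merged libraries and not replicated conditions. In the authors' expression table of merged mESC samples, 5 of 5 pluripotency genes were at 229 TPM (transcript abundance normalised for length and depth) or more, with Pou5f1 at 657 TPM. All 5 genes of a fibroblast list were also listed above 0, from 1.92 TPM for Dcn to 48.7 TPM for Col1a1. The part of feeder cells in the methylation values was not tested.

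CTCF is a zinc finger protein that holds chromatin loops in place and blocks the spread of enhancer activity across insulators. Its motif can hold CpG dinucleotides, and methylation at some of them weakens binding, which is the classical basis of allele-specific CTCF binding at imprinted loci. A CpG can be methylated on either strand. The CpG called C2 has its cytosine at position 5 of the motif strand and its partner on the opposite strand at position 6, and the CpG called C12 has its own at 15 and 16.

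The motif matches below are shown to place C2 and C12. They are the 3 best-scoring matches outside chromosomes 8 and 18 in which all 4 cytosines of C2 and C12 were shared. They are written 5′ to 3′ on the motif strand with C2 and C12 in capitals, and positions are in GRCm38 (mm10).
Cpne8, intergenic with C2 720 bases from the start, chr15:90680148-90680166, plus strand: tggcCGccagggggCGgtg
Ap5s1, intron, chr2:131210114-131210132, minus strand: cgacCGccagggggCGctg
Cfap126, intergenic, chr1:171111141-171111159, plus strand: tggcCGccaggtggCGccc

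At the match beside Cpne8, which encodes a calcium-dependent membrane-binding copine, 0 of 49 CTCF M-ChIP calls and 1 of 58 M-ATAC calls were methylated over 4 cytosines. The M-ATAC value was 1.72% (95% Wilson interval 0.305 to 9.14), and a count of 0 of 49 allows up to 6.12%. In Ap5s1, which encodes an adaptor protein complex subunit, 6 cytosines were shared and 0 of 87 calls in CTCF M-ChIP and 0 of 72 in M-ATAC were methylated. These counts allow up to 3.45% and 4.17%. Near Cfap126, a gene of motile cilia, the counts were 0 of 48 and 0 of 29. For a count of 0, the limit given here and below is 3 divided by the number of calls, and not a Wilson limit. A read can call several cytosines of 1 match, and all intervals and limits cover counting error only.

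These 3 matches were among 303 outside chromosomes 8 and 18 with all 4 cytosines of C2 and C12 shared, out of 4155 matches in the set. At 7724 of the 10066 shared cytosines, or 76.7%, neither assay gave a methylated read. The median cytosine had 11 reads in CTCF M-ChIP (maximum 79) and 10 in M-ATAC (maximum 85). Mean methylation was 2.75% on CTCF-bound DNA and 2.42% on accessible DNA. CTCF M-ChIP was higher at 1321 cytosines, lower at 992 and equal at 7753.

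The mean difference of 0.330 percentage points was small, and CTCF M-ChIP was higher on 18 of 20 chromosomes, with a range from -0.0466 to 1.16. On pooled reads the difference was larger. CTCF M-ChIP had 3082 methylated of 124690 calls, or 2.47% (95% Wilson interval 2.39 to 2.56), and M-ATAC had 2122 of 116670, or 1.82% (1.74 to 1.90). The pooled difference was 0.653 (95% Newcombe interval 0.538 to 0.768), so the size of the difference depended on whether cytosines or reads were weighted equally. Among the 1866 cytosines inside a peak of all 6 samples, the means were 0.879% and 0.777% and the difference was 0.102. Every chromosome was read from the same 2 merged libraries, so the chromosome counts here and below are not replication. A difference between the libraries in bisulfite conversion was not tested. At the 2307 cytosines with 18 to 44 CpGs in the surrounding 201 bases, pooled reads gave 0.749% in CTCF M-ChIP and 0.367% in M-ATAC.

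Low methylation was below 20%, high methylation above 80%, and intermediate methylation between them. By these bounds 9378 cytosines were low in both assays and 200 were intermediate in both. A further 262 were intermediate in CTCF M-ChIP and low in M-ATAC, and 214 were the reverse. Only 6 were high in CTCF M-ChIP and intermediate in M-ATAC, 6 were intermediate in CTCF M-ChIP and high in M-ATAC, and 0 were high in both. The counts in this cross comparison are drawn in the binned plot of both assays. In total 95.2% of the cytosines were in the same class.

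Across the 10066 cytosines the methylation values of the assays had a Pearson r of 0.623 and a Spearman rho of 0.408, given as a description, since the cytosines share libraries, motif matches and reads. Both strands were shared at 3529 CpGs, which gives a scale for these differences. There the mean absolute difference between the strands was 2.68 percentage points within CTCF M-ChIP and 2.41 within M-ATAC. Between the assays it was 2.54 on the plus strand and 2.50 on the minus strand. The spread between assays at 1 cytosine thus lay between the spreads of the strands within each assay. The strands can also differ in methylation, as at C12 below, so their spread is not counting error alone. The r between strands was 0.571 and 0.542, beside 0.598 and 0.576 between assays.

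Fisher's exact test, two-sided, was run on the methylated and unmethylated reads of each cytosine, with Benjamini-Hochberg adjustment over all 10066. It called 0 cytosines, a background of 0%, and the smallest p was 0.00392 with an adjusted p of 1. At an unadjusted p under 0.05 there were 20 cytosines, or 0.199% of those tested. CTCF M-ChIP was higher at 12 of them, 0.119% of those tested, and lower at 8, 0.0795%.

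Depth and the small number of methylated calls limited this test. Given the reads and methylated calls of each cytosine, 514 cytosines could have reached an unadjusted p under 0.05, and 25 could have reached 4.97e-06, which is 0.05 divided by the number of tests. At the median depth, with 0 methylated of 10 M-ATAC reads, 5 of 11 CTCF M-ChIP reads (45.5%) were needed for an unadjusted p under 0.05. With fewer methylated reads at this depth a single cytosine could not reach even the unadjusted threshold, and the adjusted test was stricter. Summing both strands of each CpG gave 7618 CpGs with medians of 18 and 16 reads, and 0 were called while 25 had an unadjusted p under 0.05.

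The sites at which the assays differed most in this ranking were chosen after their values were seen, and none passed the adjusted test. They are printed with the CpG of the described cytosine in capitals, or the G alone where the opposite cytosine pairs with the first base of the match.
Gm36210, intron, chr7:4901387-4901405, minus strand: agaccagaagagggCGcca
Nsun2, intron, chr13:69545182-69545200, minus strand: Gtgccaacagggggcttct
Agtpbp1, intron, chr13:59515276-59515294, plus strand: tacccactaggaggCGctg
Trpv3, exon, chr11:73281690-73281708, minus strand: gcgccgctCGatggcgatg

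In the predicted gene Gm36210 the C12 cytosine had 1 of 26 reads methylated in CTCF M-ChIP, or 3.85% (0.682 to 18.9), and 4 of 7 in M-ATAC, or 57.1% (25 to 84.2; Fisher's exact test, p = 0.00392). In Nsun2, which encodes an RNA cytosine methyltransferase, the counts were 0 of 13 and 5 of 11 (exact p = 0.0109). With both strands summed, the Gm36210 CpG had 2 of 40 reads methylated against 6 of 10 (exact p = 3.14e-04, adjusted p = 1). Both sites had lower methylation on CTCF-bound DNA.

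The opposite direction was seen in Agtpbp1, which encodes a carboxypeptidase that trims tubulin. There 6 of 12 CTCF M-ChIP reads were methylated, or 50% (25.4 to 74.6), and 0 of 10 M-ATAC reads, which allows up to 30.0% (exact p = 0.0152). In an exon of Trpv3, a heat-gated cation channel, the counts were 4 of 6 and 0 of 7 (exact p = 0.0210). Of the 20 cytosines, 10 belonged to C12 on either strand, beside 45.0% of all shared cytosines, and 2 to C2, beside 16.1%. Within 3 kb of a transcription start lay 5 of the 20, beside 60.2% of all. At 10 of the 20 no M-ATAC sample had a peak of its own, beside 29.8% of all, while both CTCF M-ChIP samples had a peak at 17, beside 79.2% of all. Such a p needs several methylated reads, so the 20 also differ from all shared cytosines in methylation. Of the 212 cytosines with at least 20% methylation in both assays, 28.8% lay within 3 kb of a start. No M-ATAC sample had a peak at 58.0% of those 212. These shares of the 20 therefore cannot be read as a trait of sites at which the assays differ.

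Cytosines methylated in both assays were few. At least 20% was reached in both at 212 cytosines of 172 motif matches, and in at least 1 assay at 688. Of the 200 that were intermediate in both, 30.0% lay in promoters, defined as within 3 kb of a transcription start in GENCODE M21, against 60.2% of all shared cytosines. Their median number of CpGs in the surrounding 201 bases was 4, against 10 for all. Their median depth was 9 reads in CTCF M-ChIP and 7.5 in M-ATAC, against 11 and 10 for all. At a depth of 5 reads, 1 methylated read is enough to reach 20%. The part of depth in these shares was not tested. The opposite cytosine of C12 made up 76 of the 212, or 35.8%, beside 22.4% of the whole set. The cytosine of C12 on the motif strand made up 37, or 17.5%, beside 22.6%, and C2 made up 1.42% beside 16.1%.

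At 31 cytosines in 29 motif matches at least 50% of the reads were methylated in both assays. These and the next sites were also chosen after their values were seen. The opposite cytosine of C12 accounted for 13 of the 31, or 41.9%, and the motif strand for 3, or 9.68%, beside 22.4% and 22.6% of all shared cytosines. Their median depth was 8 reads in CTCF M-ChIP and 6 in M-ATAC. A peak was present in both CTCF M-ChIP samples at 21 of them (67.7%, beside 79.2% of all), and in none of the 4 M-ATAC samples at 18 (58.1%, beside 29.8%). A few of the matches follow, with the CpG of the described cytosine in capitals.
H13, intron, chr2:152678457-152678475, plus strand: ataccagcagagggcatCG
Ahr, exon, chr12:35503763-35503781, plus strand: ggtccacaggggtgCGctg
Jmjd1c, intron, chr10:67192555-67192573, plus strand: gtgccagCGgaggccagaa
Wdfy3, intron, chr5:101854874-101854892, minus strand: cgaacacttgagggCGctg

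In an exon of Ahr, which encodes a ligand-activated transcription factor for dioxins, the C12 cytosine had 8 of 13 reads methylated in CTCF M-ChIP, or 61.5% (35.5 to 82.3), and 6 of 7 in M-ATAC, or 85.7% (48.7 to 97.4). Its partner on the opposite strand had 2 of 6 and 7 of 8. In Jmjd1c, a member of the Jumonji histone demethylase family, 10 of 11 CTCF M-ChIP reads and 4 of 7 M-ATAC reads were methylated at position 9 of the opposite strand. In Wdfy3, a scaffold of selective autophagy, the counts were 7 of 10 and 6 of 8. At each of these sites the intervals of the assays overlapped.

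Both CTCF M-ChIP samples had a peak at these 3 matches. Their folds, which are the enrichment of the peak over local background in samples 1 and 2, were 9.66 and 7.91 in Ahr, 10.3 and 10.1 in Jmjd1c and 9.13 and 7.99 in Wdfy3. M-ATAC sample 1 had a peak of fold 5.29 at the Ahr match and 5.59 at Wdfy3, and the other three M-ATAC samples had none at either. No M-ATAC sample had one at the Jmjd1c match.

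Among motif positions with at least 20 shared cytosines, the cytosine of C2 on the motif strand had the lowest mean in both assays. On the motif strand the 819 cytosines of C2 had means of 1.05% in CTCF M-ChIP and 0.776% in M-ATAC, a difference of 0.274. The 803 opposite cytosines of C2 had 1.37% and 1.23%. At C12 the 2278 cytosines of the motif strand had 2.49% and 2.42%, a difference of 0.0615. The 2254 opposite cytosines of C12 had 3.83% and 3.20%, a difference of 0.634 that was positive on 15 of 20 chromosomes.

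Pooled reads gave the same order. C2 on the motif strand was at 1.07% (0.885 to 1.29) in CTCF M-ChIP and 0.578% (0.449 to 0.743) in M-ATAC. C12 on the motif strand was at 2.36% (2.19 to 2.54) and 1.88% (1.72 to 2.05), and its opposite cytosine at 3.41% (3.20 to 3.62) and 2.46% (2.28 to 2.66). The difference at C12 on the motif strand was the most dependent on the processing: it was 0.0615 over cytosines, 0.332 with at least 10 reads and 0.481 on pooled reads.

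**Figure D1:**
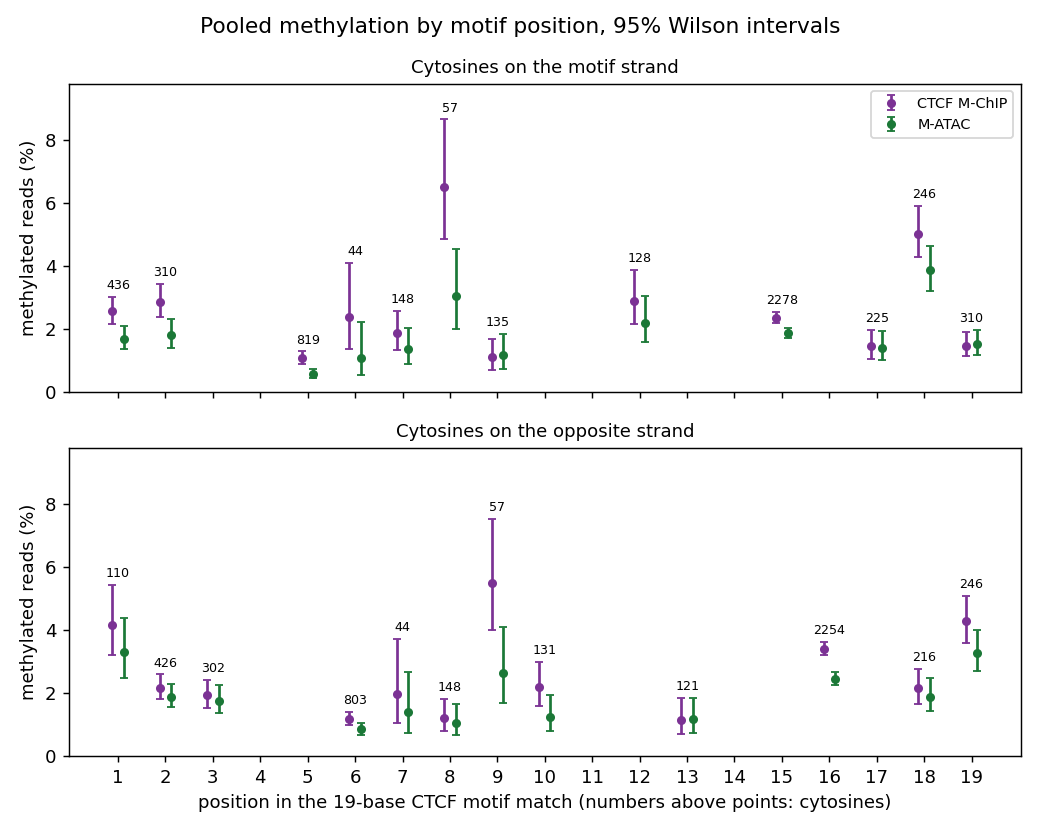
Percent of methylated reads, pooled over shared cytosines, at each position of the 19-base motif match on the motif strand (top) and the opposite strand (bottom), for CTCF M-ChIP (purple) and M-ATAC (green). Bars are 95% Wilson intervals, numbers give cytosines, and positions with fewer than 20 are left out. C2 (positions 5 and 6) is low in both assays, and position 16 is above position 15 in both.

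The strands of C12 differed in the same direction in both assays. At 1664 C12 CpGs with both cytosines shared, the mean was 2.20% on the motif strand and 3.22% on the opposite strand in CTCF M-ChIP. In M-ATAC it was 2.05% and 2.71%. The opposite strand was higher on 18 of 20 chromosomes in each assay. In CTCF M-ChIP it was higher at 273 CpGs and lower at 178, and in M-ATAC at 196 and 146. At 608 C2 CpGs the same comparison gave 0.988% and 1.26% in CTCF M-ChIP, higher on 9 of 20 chromosomes, and 0.553% and 0.975% in M-ATAC, higher on 13.

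In the 455 motif matches with both C2 and C12 shared on the motif strand, the gap between them was narrower than over all matches. CTCF M-ChIP gave 0.732% at C2 and 0.944% at C12, with C12 higher in 32 matches, lower in 29 and equal in 394. M-ATAC gave 0.713% and 0.994%, with C12 higher in 24 and lower in 19. The C12 cytosines of the whole set thus included matches without a shared C2 cytosine, whose methylation was higher.

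Outside C2 and C12 the 3912 other cytosines had means of 2.91% in CTCF M-ChIP and 2.55% in M-ATAC. The direction was not uniform. Among positions with at least 20 cytosines, CTCF M-ChIP had the lower mean at 2, 3, 7 and 13 of the opposite strand. It was also lower at 6, 17 and 19 of the motif strand, with differences from -0.343 to -0.123 over both strands. At all other such positions it was higher. On pooled reads it was lower only at 13 of the opposite strand and at 9 and 19 of the motif strand. Among positions with at least 20 cytosines, the highest CTCF M-ChIP means were at position 8 of the motif strand and position 9 of the opposite strand, which form 1 CpG. They had 6.82% and 6.61% in CTCF M-ChIP and 5.35% and 4.58% in M-ATAC, over 57 cytosines each. The CpG of positions 18 and 19 had 5.15% and 5.06% in CTCF M-ChIP and 4.60% and 4.48% in M-ATAC, over 246 cytosines each. Position 8 of the motif strand had the highest mean over cytosines in both assays. On pooled reads M-ATAC was at 3.04% there, below the 3.88% at position 18 of the motif strand.

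Over all shared cytosines the assays differed most at low CTCF M-ChIP peak fold. In the lowest quartile of CTCF M-ChIP peak fold, from 3.28 to 9.91, the 2517 cytosines had means of 3.47% in CTCF M-ChIP and 2.63% in M-ATAC, a difference of 0.839. In the next quartiles the difference was 0.397, 0.0490 and 0.0371. CTCF M-ChIP fell to 2.09% in the highest quartile, while M-ATAC was at 2.05%. The lowest quartile was positive on 18 of 20 chromosomes and the highest on 13. On pooled reads the difference was 1.35 (1.07 to 1.64) in the lowest and 0.371 (0.170 to 0.567) in the highest quartile.

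Depth moved with this result, since the median CTCF M-ChIP reads per cytosine rose from 7 in the lowest quartile to 17 in the highest. With at least 10 reads in both tables, the lowest quartile exceeded the highest by 0.344 in place of 0.801. The part of depth in this difference was otherwise not tested. Across cytosines the Spearman rho of CTCF M-ChIP fold with the difference was 0.00777, so no monotone relation was seen over single sites, most of which were at 0 in both assays.

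Along M-ATAC peak fold both assays fell together. From the lowest quartile (2.26 to 6.49) to the highest (11.8 to 32.2), CTCF M-ChIP went from 3.67% to 1.3% and M-ATAC from 3.33% to 1.09%. The difference was 0.339 in the lowest quartile and 0.210 in the highest, but pooled reads turned this order, with 0.154 (-0.151 to 0.452) and 0.428 (0.276 to 0.585). The folds of both peaks were nearly unrelated over 10064 cytosines (Spearman rho 0.104, a description). Where CTCF fold was in its lowest quartile, the 753 cytosines in the lowest quartile of M-ATAC fold had 4.97% in CTCF M-ChIP, and the 575 in the highest had 1.13%. In the lowest M-ATAC quartile the difference was 0.766 in the lowest and -0.0338 in the highest CTCF fold quartile. In the highest M-ATAC quartile these differences were 0.142 and 0.159, or 0.457 and 0.284 on pooled reads. The contrast by CTCF fold in the means was thus absent there.

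**Figure D2:**
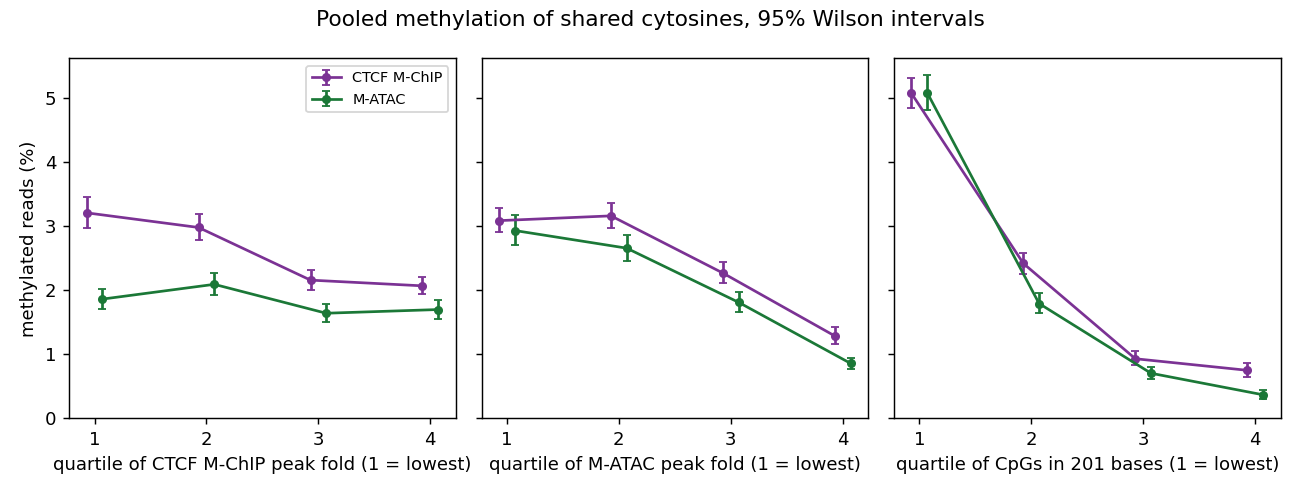
Percent of methylated reads of the shared cytosines, pooled, by quartile of CTCF M-ChIP peak fold, of M-ATAC peak fold and of the number of CpGs in 201 bases (x axes, 1 is lowest), for CTCF M-ChIP (purple) and M-ATAC (green) with 95% Wilson intervals. The assays lie apart at low CTCF fold, at 3.21% and 1.86%, and both fall with M-ATAC fold and CpG density.

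CpG density separated the cytosines more than either fold. With 1 to 5 CpGs in 201 bases, 2643 cytosines had means of 6.01% in CTCF M-ChIP and 5.68% in M-ATAC. With 18 to 44 CpGs, 2307 cytosines had 0.684% and 0.420%. By annotation, the 6060 promoter cytosines had 1.67% and 1.42%, the 1683 other genic ones 5.77% and 5.35%, and the 2323 intergenic ones 3.35% and 2.88%. CTCF M-ChIP had the higher mean in each of these groups. On pooled reads the difference in the lowest quartile of CpG density turned from 0.335 to -0.0116. The pooled intervals of the difference included 0 for genic cytosines (-0.341 to 0.529) and for the lowest quartile of CpG density (-0.371 to 0.344).

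Peaks of single samples are the values with replicates at these sites. A peak of CTCF M-ChIP sample 1 held 97.3% of the shared cytosines and one of sample 2 held 80%. For M-ATAC samples 1 to 4 the shares were 45.2%, 50.9%, 43.0% and 39.9%. At the 688 cytosines with at least 20% methylation in either assay they were 23.8%, 23.7%, 17.4% and 13.4%, below the values of 46.7%, 52.9%, 44.9% and 41.9% at the 9378 cytosines low in both. The 4 M-ATAC values of each class did not overlap. The CTCF M-ChIP samples showed 92.3% and 80.2% against 97.7% and 80%, so sample 1 was lower at the more methylated cytosines and sample 2 was not. At the 212 cytosines with at least 20% in both assays they showed 91.0% and 76.9%, and the interval of sample 2 there (70.8 to 82.1) included its value at the low cytosines. The methylation classes come from the merged reads of these same assays, and the part of depth in this contrast was not tested.

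**Figure D3:**
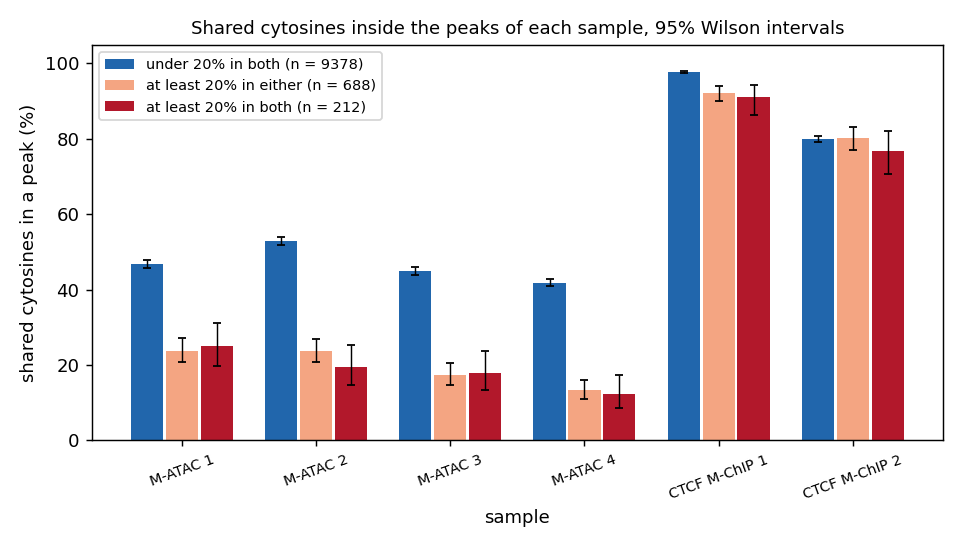
Percent of shared cytosines inside a peak of each of the 4 M-ATAC and 2 CTCF M-ChIP samples (x axis), for cytosines under 20% in both assays (blue), at least 20% in either (orange) and at least 20% in both (red), with 95% Wilson intervals. In every M-ATAC sample the blue bar is above the others, from 41.9% to 52.9%.

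Lying in an M-ATAC peak went with low methylation on CTCF-bound DNA. The M-ATAC table lists cytosines of M-ATAC peaks, so that the M-ATAC reads of other cytosines are not known here. The 23893 motif cytosines with at least 5 CTCF M-ChIP reads that were not in the shared set had a CTCF M-ChIP mean of 16.8%, against 2.75% for the shared ones. Of the 23893, 21225 lay outside merged M-ATAC peaks and had 18.3%, and 2668 lay inside one and had 4.31%. On pooled reads the 23893 cytosines were at 14% (13.9 to 14.1) and the shared ones at 2.47% (2.39 to 2.56). At least 20% methylation was reached at 30.3% of the 23893 and at 4.71% of the shared ones. Of the 23893, 2611 cytosines were listed for M-ATAC with 1 to 4 reads, and 21282 were not listed.

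The contrast was present in each quartile of CTCF M-ChIP peak fold, which is not a direct measure of CTCF occupancy. In the lowest quartile of CTCF M-ChIP fold over both sets, cytosines outside the shared set had 23.3% and shared ones 3.51%. In the highest quartile they had 10.9% and 2.07%. It was present in promoters, with 12.8% against 1.67%, and outside them, with 18.5% against 4.37%. At 1 to 5 CpGs in 201 bases the means were 20.4% and 6.01%, and above 5 they were 7.55% and 1.58%. With a minimum of 10 reads in place of 5 the gap between the sets was 8.08 percentage points in place of 14. Both sets were redrawn for this. Cytosines with fewer than 10 M-ATAC reads then counted as outside the shared set, which held 3100.

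**Figure D4:**
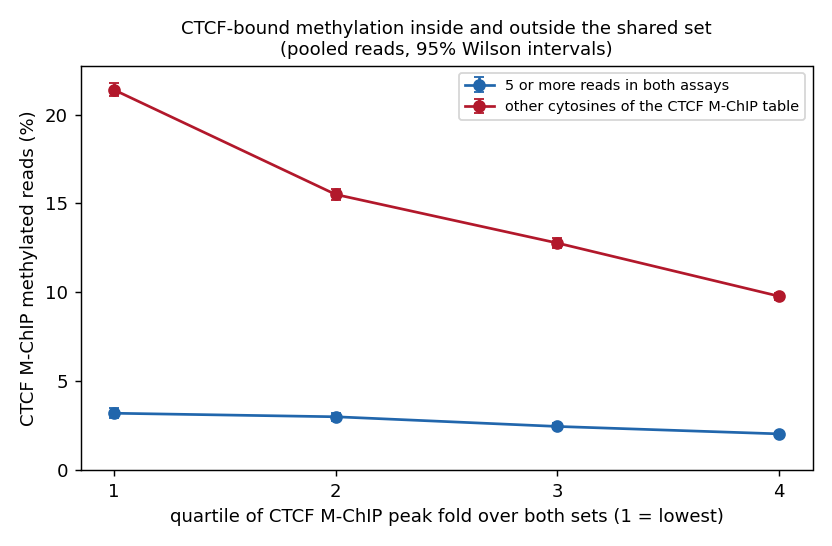
Percent of methylated CTCF M-ChIP reads, pooled, by quartile of CTCF M-ChIP peak fold (x axis, 1 is lowest) for cytosines with at least 5 reads in both assays (blue) and for the other cytosines of the CTCF M-ChIP table (red), with 95% Wilson intervals. The red values fall from 21.4% to 9.78%, and the blue values from 3.21% to 2.05%.

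Imprinted genes are a textbook case of CTCF and methylation, and a list of 30 was examined. Shared cytosines lay within 10 kb of 6 of them, 24 cytosines in all, with means of 7.00% in CTCF M-ChIP and 5.57% in M-ATAC. None had an unadjusted p under 0.05. A match each is printed for 3 genes, with every CpG that held a shared cytosine in capitals.
Meg3, exon, chr12:109543036-109543054, minus strand: agacCGctagggggCGCGC
Grb10, exon, chr11:12025862-12025880, plus strand: tCGccacaCGgggtCGctg
Peg3, intron, chr7:6727426-6727444, plus strand: atggCGccagagggaggag

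At Meg3, a maternally expressed long noncoding RNA, 3 of 87 CTCF M-ChIP calls and 5 of 73 M-ATAC calls were methylated over 7 cytosines of 1 match. At Grb10, which encodes an adaptor that restrains growth, the counts were 0 of 89 and 0 of 67 over 7 cytosines of 2 matches, of which the printed one held 6, and these allow up to 3.37% and 4.48%. In Peg3, a paternally expressed zinc finger gene beside Usp29, 4 of 54 and 2 of 164 calls were methylated over 6 cytosines of 3 matches. The printed one had 2 of 23 and 1 of 52. The 2 cytosines near Inpp5f had 0 of 38 and 0 of 24.

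The intron of H13, which holds the imprinted retrogene Mcts2, gave the one imprinted match with high values, printed above. At the opposite cytosine of its last CpG, 12 of 16 CTCF M-ChIP reads were methylated, or 75.0% (50.5 to 89.8), and 5 of 6 M-ATAC reads, or 83.3% (43.6 to 97.0). The cytosine of the motif strand in the same CpG had 2 of 9 and 1 of 10, or 22.2% (6.32 to 54.7) and 10% (1.79 to 40.4). The strands of this CpG thus differed more than the assays did, and the match lay 8561 bases from the nearest annotated start, that of Mcts2. Both CTCF M-ChIP samples had a peak there, of fold 10.5 in each, and no M-ATAC sample did.

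Of the 5 loci that the study names, 2 held shared cytosines. In Klf4, which encodes a pluripotency factor, 2 opposite-strand cytosines were measured, and both matches are printed with C2 in capitals.
Klf4, exon, chr4:55530446-55530464, minus strand: cagcCGccaggtggcgggc
Slco5a1, exon, chr1:12990355-12990373, plus strand: ctgcCGgcaggaggcgctg
The C2 cytosine of Klf4 had 0 of 10 CTCF M-ChIP reads and 0 of 8 M-ATAC reads methylated, and the C12 cytosine 0 of 12 and 1 of 9. In Slco5a1, of the organic anion transporter family, all 4 cytosines of C2 and C12 were shared and none had a methylated read, with 5 to 8 reads each in CTCF M-ChIP and 8 to 9 in M-ATAC.

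The cytosines with the most reads in both tables were also nearly unmethylated. A cytosine on chromosome 8 at position 20424869, 55 bases from the start of 2610005L07Rik, had 0 of 78 reads methylated in CTCF M-ChIP and 1 of 50 in M-ATAC, in the peak of the highest CTCF M-ChIP fold of the set, 49.8. Its neighbour at 20424867 had 4 of 77 and 1 of 48. In an exon of Trpm8, a cold-sensing channel, a C12 cytosine had 0 of 25 and 1 of 77. A C12 cytosine 182 bases from the start of Scai had 0 of 12 and 0 of 84, and the latter allows up to 3.57%. None of these cytosines had an unadjusted p under 0.05.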

How the data were processed

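M-ATAC and CTCF M-ChIP were measured in KH2 mESC. Per the paper's methods, the authors trimmed reads (Trim Galore 0.4.4), aligned them to mm10 (Bismark 0.18.1, Bowtie2) and removed low-quality and duplicate reads (SAMtools 1.3). The deposited tables hold counts of methylated and unmethylated reads and a percent per CpG cytosine of merged replicates. The authors' MACS2 peak lists give a fold ratio and a −log10 q-value per summit. The deposited FIMO list gives a score and p-value per motif match, and the authors' expression table gives TPM.

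Rows were joined by chromosome and position, at least 5 reads in both tables were required, and a cytosine in several matches was given its best-scoring one. All 43074 motif matches compared equalled GRCm38 at the deposited positions. Fold was that of the highest summit of the merged peak. Fisher's exact test (scipy 1.17.1, checked on simulated data), Benjamini-Hochberg adjustment, Wilson and Newcombe 95% intervals and chromosome values were used. Python 3.11.15, numpy 2.4.6, pandas 2.3.3 and matplotlib 3.10.9 were used.

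Sites were named if they passed the adjusted test, exceeded 80% in both assays, had the most reads, lay at loci that the study names or within 10 kb of an imprinted gene. The first pair of rules gave none. Chosen after their values were seen were sites of an unadjusted p under 0.05 and of at least 50% in both assays. Also named were the 3 best-scoring matches with C2 and C12 shared on both strands. Members and lists were chosen with earlier results of these data known. Alternatives changed 1 choice at a time: read minimum, strands, weighting, motif p, summit, class bounds, promoter width and samples. Other samples of the series were not used here.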

Additional observations from a re-analysis of the deposited data

How the results depend on the processing

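Of 71 alternatives, 44 stayed within the interval or spread of the value (for counts, within 1.5 times), 24 moved it further and 3 turned its direction, all 3 of them pooling of reads added after seeing the data. The 44 include the alternatives in which the Fisher calls stayed at 0, where few cytosines had the reads to be called. The contrast by M-ATAC fold, the lowest minus the highest quartile, turned to -0.273, and the difference in the lowest quartile of CpG density to -0.0116. In a peak of both CTCF M-ChIP samples and of no M-ATAC sample, the difference of 0.0999 turned to -0.100. Pooling also gave 0.540 in promoters. In all, 0 cytosines were called by Fisher's exact test with at least 1 or 10 reads, with strands summed, with motif p at most 1e-05 or in a peak of all samples. The mean difference of 0.330 became 0.459 with at least 1 read, 0.653 on pooled reads and 0.102 in a peak of all 6 samples. In an alternative chosen after seeing the data, it was 0.192 among cytosines under 20% in both tables. For the 0.102 in a peak of all 6 samples, leaving out each sample's peaks in turn gave 0.105 to 0.184, with 0 calls in each. It moved that value by over 1.5 times without M-ATAC replicate 1 (0.167), 2 (0.184) or 4 (0.158), though within its interval. Only the requirement of a peak was dropped, and the merged reads per cytosine stayed as they were. At C12 on the motif strand the difference of 0.0615 became 0.332 with at least 10 reads, 0.398 with strands summed, 0.634 on the opposite strand and 0.481 on pooled reads. The contrast by CTCF fold fell to 0.344 with at least 10 reads. The share in the same class was 90.1% with bounds of 10% and 90%, and 98.3% with at least 10 reads. At that minimum the strands differed by 1.58 in CTCF M-ChIP and 1.51 in M-ATAC. With both sets redrawn at that minimum, the gap to the cytosines outside the shared set was 8.08. The cause was not tested. Cytosines at an unadjusted p under 0.05 numbered 6 with at least 10 reads, 28 with at least 1 read and 0 in a peak of all samples.

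No paired analysis was possible because methylation was read from merged tables, whose columns carry no replicate numbers. With a median of 11 and 10 reads, only large differences at a single cytosine were detectable.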
